A study of Mus musculus with 9 samples.

Results

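ATP-binding cassette (ABC) transporter genes were followed in cultured mesenchyme of the mouse small intestine treated with hedgehog ligands. The members were the genes whose symbol runs from Abca to Abcg followed by a digit, each measured by its probe set with the highest mean over all arrays. There were 45 such genes among the 18193 genes analysed here. The family was taken up because Abca9, Abcb1a and Abcg3 were already known from these data to have changed. Their calls are therefore given as a description, and the count of called members supports nothing further.

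The mesenchyme came from C57Bl/6J embryos at E18.5, shortly before birth. It was freed of epithelium and kept on collagen for 48 h. It then received Sonic hedgehog (Shh), Indian hedgehog (Ihh) or the control, Vehicle, for 24 h, with 3 arrays in each group. No group carried a genetic alteration, all groups shared serum-containing medium. The sources used here do not give the ligand doses or what the Vehicle held. Each sample was a random pool drawn from the 6 wells of its treatment, and no source says that wells came from separate embryos. The p-values measure the spread between pools. Sex-linked genes, given below, differed between pools of Vehicle and between pools of Shh, so those pools did not hold the same mix of embryos. How much of the spread is technical is not known. The design asks how gut mesenchyme responds to acute hedgehog signalling.

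ABC proteins use ATP to move substrates across membranes, and a few have other work. ABCA and ABCG members mostly move lipids and sterols, ABCB and ABCC members export drugs, conjugates, bile components and peptides, and ABCD members serve peroxisomes and lysosomes. ABCE and ABCF proteins cross no membrane and act at the ribosome. In the gut, drug efflux pumps and sterol exporters are best known from the epithelium, and cholesterol exporters such as Abca1 and Abcg1 from macrophages. Shh and Ihh are made by the gut epithelium and received by the mesenchyme beneath it.

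Values are log2 expression on the deposited scale, so a difference of 1 is a doubling, and levels of different probe sets are not comparable with each other. Array medians over all probe sets were 5.87 to 5.92 log2. Of the 45 genes, 28 lay above the array median on every array, 14 below it on every array and 3 on either side. Low values are compressed towards background, so differences of these 14 genes may be understated. Ptch1, a hedgehog target, lay at 9.06 to 9.25 log2 with Vehicle and at 10.35 to 10.98 on the treated arrays. Mesenchyme markers were high, with a list mean of 11.19 to 11.54 log2 over the 9 arrays, and markers of other cells were present. The mean of 8 epithelium markers ranged from 6.05 to 8.42 log2 between arrays of the same groups, and Cdh1, Epcam and the keratins were among them. Epcam itself varied little, at 7.72 to 7.98 log2 on all arrays, while Cdh1 ran from 4.71 to 8.37. Of 4 mesothelium markers, Wt1, Upk3b and Lrrn4 lay below the array medians on every array. For Gapdh, the 3' minus the 5' control signal, which moves with RNA quality, ran from -0.08 to 0.03 log2 on the Vehicle arrays, from -0.18 to -0.15 on those of Shh and from -0.19 to -0.04 on those of Ihh. Its part in the results was not tested. Xist was at 10.83, 6.34 and 6.48 log2 on the Vehicle arrays, 11.31, 11.24 and 6.43 with Shh, and 10.04, 10.28 and 10.66 with Ihh. Y-linked Eif2s3y was at 6.24, 8.66 and 8.98 log2 with Vehicle, 3.24, 3.17 and 8.44 with Shh, and 8.51, 7.54 and 7.74 with Ihh. The pools were therefore not alike in their make-up by sex, within groups or between them. The part of sex in the results was not tested.

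Most ABC genes moved little. For both ligands together against Vehicle, the differences of the 45 genes ran from -0.63 to 0.54 log2 with a median of -0.01, against a median of 0.00 over all genes, and 40 of the 45 lay within 0.25 log2 of Vehicle (88.9%, against 93.3% of all genes). Limma with Benjamini-Hochberg adjustment over all genes called 2 of them, a rise of Abcg3 and a fall of Abcb1a, where 1.51% of all genes were called (0.434% upward and 1.07% downward). Because the family was chosen with these calls known, nothing is read from that comparison. The 6 treated arrays lay entirely on one side of the 3 Vehicle arrays for 4 members, Abcg3 and Abcc8 above and Abcb1a and Abcc1 below, against 6.47% of all genes (2.67% above and 3.80% below). Just inside the threshold was Abcb1a (adjusted p = 0.0361), and just outside it were Abcc1 (0.0508) and Abca9 (0.0602). Other members with an unadjusted p under 0.05 were Abca3, Abcb1b and Abcb8, which brought the number to 7 of 45, against 13.7% of all genes. By subfamily, 10 of 14 ABCA genes, 5 of 8 ABCB, 5 of 10 ABCC, 2 of 3 ABCD, the lone ABCE and all 3 ABCF genes had differences below 0, and all 6 ABCG genes had differences above 0. Outside Abcg3 the ABCG differences reached no more than 0.13 log2, and those of Abcg1 and Abcg5 were 0.01, which is too small to fix a sign: that of Abcg1 turned below 0 when arrays were centred on their medians.

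**Figure D1:**
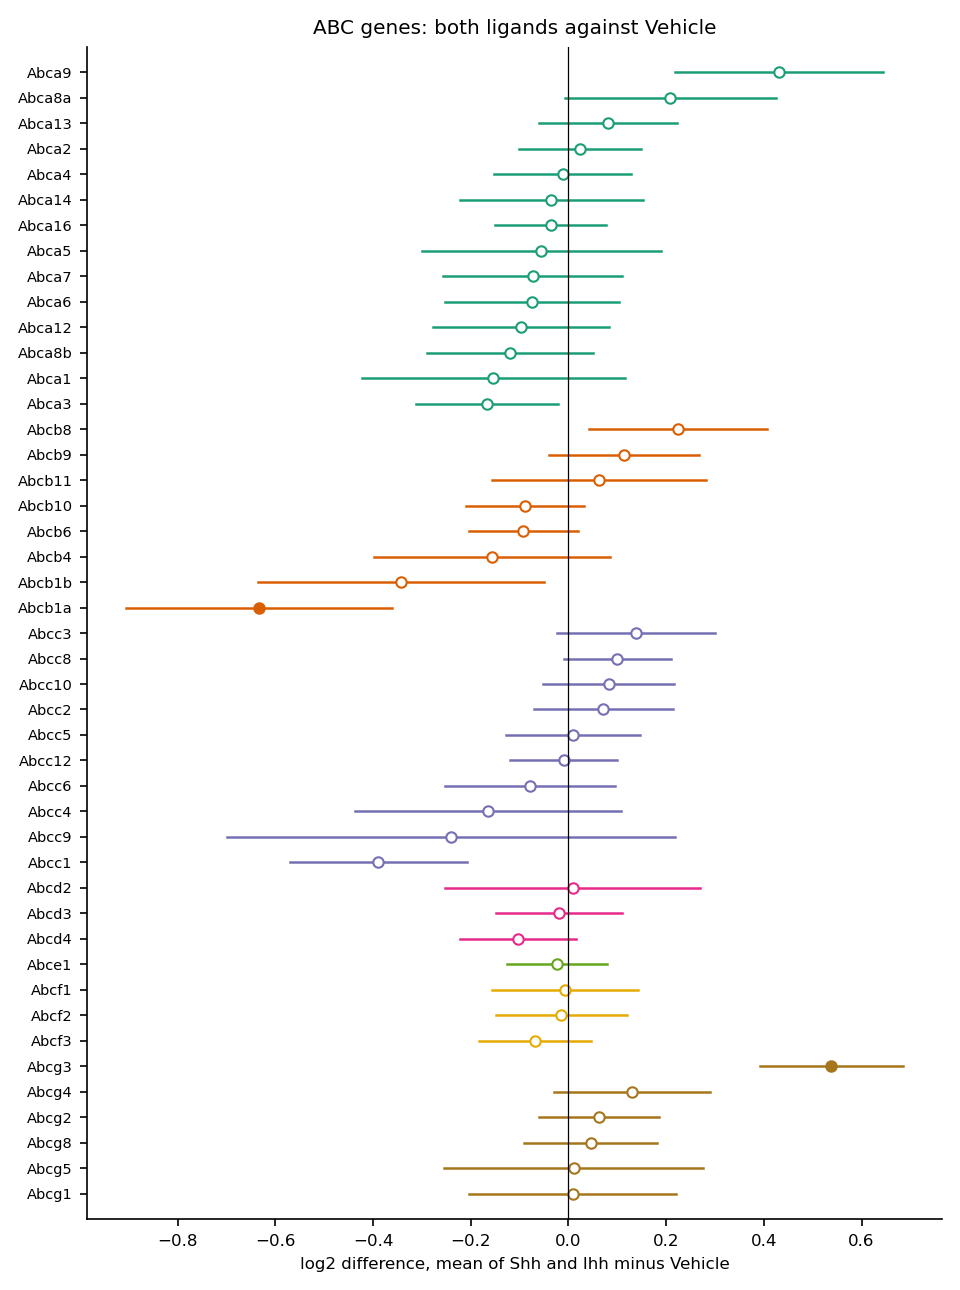
Difference of each of the 45 ABC genes between both ligands and Vehicle on the log2 scale (points, horizontal axis) with 95% confidence intervals from limma (lines), coloured by subfamily from ABCA at the top to ABCG at the bottom; filled points passed the threshold. Abcb1a at -0.63 and Abcg3 at 0.54 stand farthest from 0, followed by Abca9 at 0.43 and Abcc1 at -0.39.

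The promoters of the 3 genes that changed with a ligand are shown for context, as 250 bases before and 50 after the RefSeq transcription start on GRCm38.p6, read 5′ to 3′ on the strand of the gene. They are Abcg3 at chr5:104982668-104982967 on the minus strand, Abcb1a at chr5:8566841-8567140 on the plus strand and Abca9 at chr11:110168104-110168403 on the minus strand. Capitals mark matches to 1 of 6 motifs searched on both strands.
Abcg3: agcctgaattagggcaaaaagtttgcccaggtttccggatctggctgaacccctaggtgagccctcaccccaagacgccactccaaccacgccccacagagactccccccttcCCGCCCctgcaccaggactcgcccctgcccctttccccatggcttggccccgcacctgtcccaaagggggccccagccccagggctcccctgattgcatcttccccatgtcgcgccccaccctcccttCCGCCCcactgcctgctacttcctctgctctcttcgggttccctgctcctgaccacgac
Abcb1a: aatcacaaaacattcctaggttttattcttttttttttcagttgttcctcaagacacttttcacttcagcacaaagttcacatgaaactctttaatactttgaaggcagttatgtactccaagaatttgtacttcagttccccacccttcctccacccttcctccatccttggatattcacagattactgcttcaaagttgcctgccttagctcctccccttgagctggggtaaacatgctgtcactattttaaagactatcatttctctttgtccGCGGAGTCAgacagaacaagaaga
Abca9: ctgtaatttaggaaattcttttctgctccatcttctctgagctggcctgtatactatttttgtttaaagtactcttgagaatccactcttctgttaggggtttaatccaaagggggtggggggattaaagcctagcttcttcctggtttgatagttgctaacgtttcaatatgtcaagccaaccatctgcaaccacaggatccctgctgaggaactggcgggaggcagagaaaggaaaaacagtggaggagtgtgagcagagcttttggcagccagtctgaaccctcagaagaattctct

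The 3 windows differ in base composition, with 65.3% G and C in that of Abcg3, 40.3% in that of Abcb1a and 45.3% in that of Abca9, against a median of 52.7% over 32851 such windows. The motif of GLI factors, GACCACCCA, was in none of 42 windows of 35 ABC genes and in 0.253% of all windows. The GC box GGGCGG had 2 matches in the window of Abcg3, both on the opposite strand, and was in 21 of the 42 ABC windows and 35.7% of all windows. The antioxidant element TGACNNNGC had 1 match in the window of Abcb1a, after the transcription start and on the opposite strand, and was in 7 of the ABC windows and 12.4% of all. The CCAAT box CCAAT, the TATA box TATAAA and the DR4 repeat bound by liver X receptors had no match in the 3 windows and were in 15, 7 and 0 of the ABC windows, and in 37.4%, 13.6% and 0.0152% of all. No overlap between different motifs occurred in the 3 windows shown. A match is a run of letters and does not show binding.

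Abcg3 rose with each ligand. It is a rodent relative of the drug efflux pump Abcg2, and its substrate is not established. Its level was 6.81, 6.71 and 6.71 log2 on the 3 Vehicle arrays, 7.23, 7.49 and 7.24 with Shh, and 7.22, 7.21 and 7.30 with Ihh. Every treated array lay above every Vehicle array, and the ligand groups overlapped each other. For both ligands together the gene was 1.45-fold higher (0.54 ± 0.07 log2, SE, adjusted p = 0.00344), with 0.58 ± 0.08 for Shh (adjusted p = 0.00743) and 0.50 ± 0.08 for Ihh (adjusted p = 0.0179), 3 comparisons that share the Vehicle arrays. A second probe set of the gene, at a mean of 7.07 log2, differed by 0.71 ± 0.11 for both ligands (adjusted p = 0.0152 over all probe sets). The Ihh call was lost without Vehicle 2 or any 1 of the Ihh arrays (adjusted p up to 0.0948), while those for Shh and for both ligands stayed past the threshold in all 18 alternative settings.

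The other ABCG genes, which handle drugs and sterols, lay close to Vehicle. Abcg2, an efflux pump for drugs and urate, had means of 9.06 ± 0.06 log2 on the Vehicle arrays (SD, n = 3), 9.10 ± 0.06 on those of Shh and 9.14 ± 0.08 on those of Ihh. Its difference for both ligands was 0.06, with a 95% interval of -0.06 to 0.18. Abcg1, which passes cholesterol to high-density lipoprotein, was at 9.19 ± 0.10, 9.18 ± 0.11 and 9.23 ± 0.23, and its interval ran from -0.20 to 0.22. Abcg4, a relative of Abcg1 known from brain, differed by 0.13 for both ligands (adjusted p = 0.477) and by 0.20 for Shh (adjusted p = 0.229). Abcg5 and Abcg8 form the sterol exporter of gut epithelium and liver and are neighbours on chromosome 17. Abcg5 lay at 3.61 to 4.11 log2 on all arrays, below the array medians, and Abcg8 at 5.77 to 6.10.

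Abcb1a fell. It encodes P-glycoprotein, a broad drug efflux pump, as does its neighbour Abcb1b. Abcb1a lay at 8.43, 8.40 and 8.33 log2 on the Vehicle arrays, 7.51, 7.36 and 7.84 with Shh, and 8.15, 8.001 and 7.65 with Ihh. All treated arrays lay below all Vehicle arrays, and Shh and Ihh overlapped between 7.65 and 7.84. The gene was 1.55-fold lower for both ligands together (-0.63 ± 0.12 log2, adjusted p = 0.0361) and 1.76-fold lower with Shh (-0.82 ± 0.14, adjusted p = 0.0244). With Ihh the difference was -0.45 ± 0.14 (adjusted p = 0.281), short of the threshold. A second probe set gave -0.65 ± 0.17 for both ligands (adjusted p = 0.121 over all probe sets). The call for both ligands was lost without any 1 of the Vehicle arrays, Shh 1, Shh 2 or Ihh 2 (adjusted p up to 0.154) with the mean of both probe sets (-0.64 log2, 0.0606) and with the replicate number as a block (0.057). The Shh call was lost without Vehicle 1, Vehicle 2, Shh 1 or Shh 2 (up to 0.0981).

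Some markers of other cell types moved beside Abcb1a. The mean of 11 macrophage and leukocyte markers was 9.60 to 9.85 log2 with Vehicle, 9.31 to 9.34 with Shh and 9.30 to 9.41 with Ihh, and of the 11 Adgre1, Itgam, Cd14 and Lyz2 fell and 0 rose, where 1.07% and 0.434% of all genes did. The members of the list did not all move the same way, and their median difference was -0.15 log2 for both ligands. Among the markers short of the threshold, Cd68 differed by 0.22 log2, C1qa by 0.17, Mrc1 by 0.10 and Csf1r by 0.00. The others short of it were Fcgr1 at -0.74, Ptprc at -0.15 and Cd163, below the array medians, at -0.09. The mean of 8 endothelium markers was 8.90, 8.89 and 8.64 on the Vehicle arrays, 8.35, 8.47 and 8.43 with Shh, and 8.82, 8.67 and 8.39 with Ihh. The Ihh and Vehicle arrays overlapped. Of the 8 markers 0 rose and 0 fell past the threshold, and their median difference was -0.28 log2 for both ligands. The other lists had 0 calls each. Their medians were -0.23 log2 for enteric neurons and glia, -0.155 for interstitial cells of Cajal and -0.10 for mesothelium. For mesenchyme, smooth muscle and epithelium they were -0.09, 0.12 and 0.33. The part of these cells in the fall of Abcb1a was not tested. In such bulk samples fewer cells of a type and less RNA per cell cannot be told apart.

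Abcb1b, next to Abcb1a on chromosome 5, lay at 7.17, 6.79 and 7.39 log2 with Vehicle, 7.05, 6.58 and 6.97 with Shh, and 6.71, 6.68 and 6.65 with Ihh. The Ihh arrays lay below all Vehicle arrays, while those of Shh overlapped them. Its difference for both ligands was -0.34 ± 0.13 (adjusted p = 0.27), and a second, dimmer probe set gave -0.03. Abcb1a and Abcb1b are close in sequence, and which transcripts each probe set detects was not examined. Abcb4, the phospholipid exporter of bile that follows them on the chromosome, differed by -0.16 (adjusted p = 0.592), with Vehicle 3 at 7.02 and the other 8 arrays between 6.37 and 6.65 log2.

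The remaining ABCB genes stayed short of the threshold in all 4 comparisons. Abcb8, of the inner mitochondrial membrane, lay at 6.98, 7.19 and 7.09 log2 with Vehicle, 7.30, 7.30 and 7.38 with Shh, and 7.15, 7.22 and 7.51 with Ihh. Its difference for both ligands was 0.22 ± 0.08 (adjusted p = 0.242), and its second probe set gave 0.03. Abcb10, a mitochondrial transporter needed for haem synthesis in red cell precursors, differed by -0.09, Abcb6, linked to porphyrin transport, by -0.09, and Abcb9, a lysosomal peptide transporter, by 0.11 log2. Abcb11, the bile salt export pump of liver, was at 3.87 to 4.37 log2 on all arrays, below the array medians.

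Abca9 rose with Ihh. It is a full-length lipid transporter of the cluster Abca8b, Abca8a, Abca9, Abca6 and Abca5, which follow each other in that order on chromosome 11, and its substrate is not well defined. Its level was 6.32, 6.41 and 6.01 log2 with Vehicle, 6.52, 6.52 and 6.37 with Shh, and 6.89, 7.03 and 6.74 with Ihh. The Ihh arrays lay above all other arrays, and Shh 3 lay below Vehicle 2. With Ihh the gene was 1.56-fold higher (0.64 ± 0.11 log2, adjusted p = 0.0359). With Shh the difference was 0.23 ± 0.11 (adjusted p = 0.306), and for both ligands together 0.43 ± 0.10 (adjusted p = 0.0602). A second probe set, at a mean of 4.01 log2 and below the array medians, differed by 0.04 ± 0.06 with Ihh. The Ihh call was lost when any array but Vehicle 3 was left out (adjusted p up to 0.157), and the mean of both probe sets gave 0.34 log2 (adjusted p = 0.0538).

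The neighbours of Abca9 did not pass the threshold in any comparison. Abca8a, next to it, lay at 5.65, 5.54 and 5.60 log2 with Vehicle, 5.70, 5.96 and 5.70 with Shh, and 6.08, 5.63 and 5.78 with Ihh, so that only Ihh 2 reached into the Vehicle range. Its difference for both ligands was 0.21 ± 0.10 (adjusted p = 0.38). Abca8b differed by -0.12, Abca6 by -0.07 and Abca5 by -0.06, and Abca8b and Abca6 lay below the array medians on every array.

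**Figure D2:**
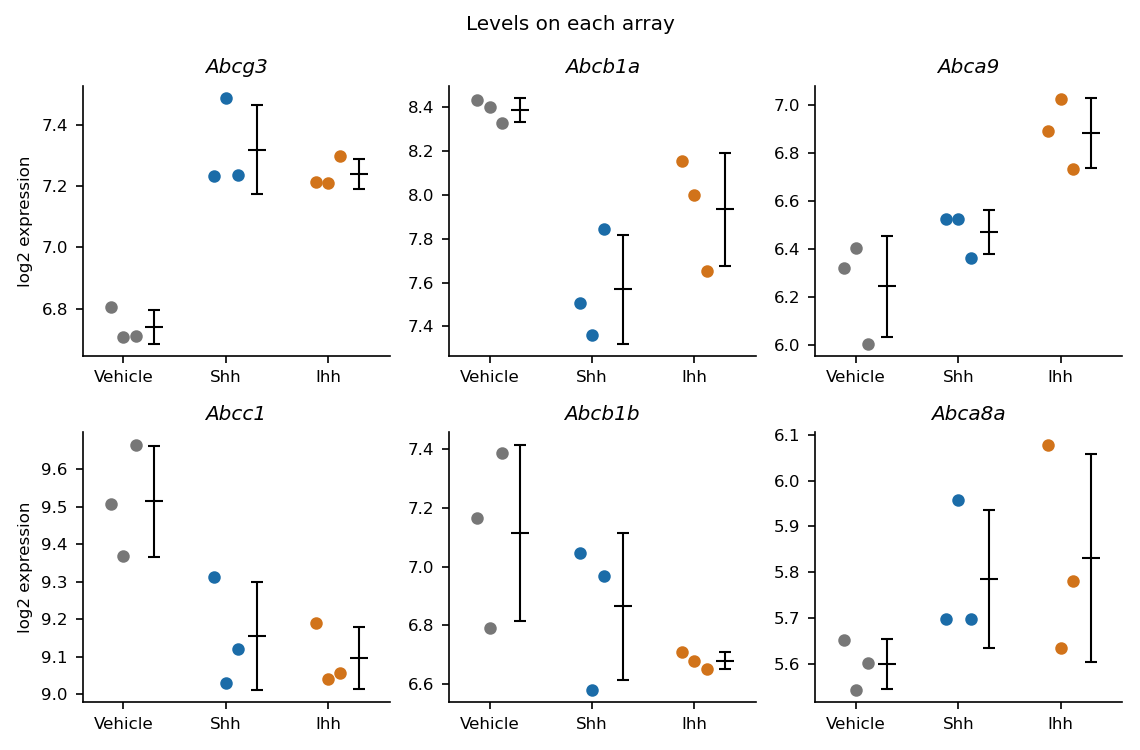
Level of 6 ABC genes on each array in log2 expression (vertical axes, each with its own range that does not start at 0), with points for the arrays of Vehicle, Shh and Ihh and black bars for the mean and SD of each group (n = 3). Abcg3 separates the treated arrays upward and Abcb1a and Abcc1 downward, while Abca9 is highest on the Ihh arrays.

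Of the other lipid transporters, Abca1, which loads cholesterol and phospholipid onto apolipoprotein A-I, lay at 12.23, 12.05 and 12.004 log2 with Vehicle, 11.51, 12.03 and 11.89 with Shh, and 12.28, 12.06 and 11.88 with Ihh. All groups overlapped, and Shh 1 was the lowest array. Its difference for both ligands was -0.15 with an interval of -0.42 to 0.11, and 2 dimmer probe sets gave 0.15 and 0.25, so its direction depends on the probe set. Abca3, which fills the surfactant bodies of lung cells, differed by -0.17 ± 0.07 (adjusted p = 0.282), with -0.25 and 0.15 from its other 2 probe sets. Abca7, a phospholipid transporter linked to phagocytosis, differed by -0.07, Abca2, of lysosomes, by 0.02, and Abca4, of photoreceptors, by -0.01. Abca12, the lipid transporter of skin, and Abca13, Abca14 and Abca16 lay between 3.21 and 4.997 log2 on all arrays, below the array medians, and differed by -0.10 to 0.08.

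Among the ABCC genes, Abcc1 came closest to the threshold. It exports glutathione conjugates, leukotriene C4 among them. Its level was 9.51, 9.37 and 9.67 log2 with Vehicle, 9.31, 9.03 and 9.12 with Shh, and 9.19, 9.04 and 9.06 with Ihh, so every treated array lay below every Vehicle array. Its difference was -0.39 ± 0.08 for both ligands (adjusted p = 0.0508), -0.36 ± 0.09 for Shh (adjusted p = 0.0891) and -0.42 ± 0.09 for Ihh (adjusted p = 0.106). For both ligands it passed the threshold in 6 of 18 alternative settings, at adjusted p of 0.0269 to 0.0445, and leaving out 1 array at a time gave adjusted p of 0.0381, without Shh 1, to 0.171, without Vehicle 1. A second, dimmer probe set gave -0.19. The macrophage and leukocyte mean given above moved in the same direction. The median differences of endothelium (-0.28 log2), enteric neurons and glia (-0.23) and interstitial cells of Cajal (-0.155) were also below 0. So were those of mesothelium (-0.10) and mesenchyme (-0.09), while those of smooth muscle (0.12) and epithelium (0.33) were above 0. The part of these cells in the difference of Abcc1 was not tested.

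Abcc9, the sulphonylurea receptor that gates potassium channels of vascular muscle, varied most between replicates, with an SD within groups of 0.37 log2 against a median of 0.11 over the 45 genes. It lay at 11.03, 10.96 and 10.28 log2 with Vehicle, 9.90, 10.63 and 10.43 with Shh, and 10.93, 10.83 and 10.37 with Ihh. The groups overlapped, and the difference for both ligands was -0.24 with an interval of -0.70 to 0.22. Its other 2 probe sets gave -0.25 and -0.37. The mean of Kit and Ano1, markers of interstitial cells of Cajal, was likewise lowest within its group on Vehicle 3, Ihh 3 and Shh 1, at 7.88, 7.97 and 7.76 log2. The same 3 arrays were the lowest of their groups in the means of the endothelium markers and of 6 markers of enteric neurons and glia, the latter at 8.35, 8.26 and 8.17 log2. The other marker lists did not share this pattern on all 3 arrays. The smooth muscle mean was lowest on Vehicle 1, Shh 3 and Ihh 1, at 10.10, 10.19 and 9.98 log2. Mesenchyme, macrophage and leukocyte, epithelium and mesothelium means were also lowest within their groups on Vehicle 3 and Ihh 3. Their lowest Shh array was Shh 3 for mesenchyme, and Shh 2 for macrophage and leukocyte, epithelium and mesothelium markers. The part of these cells was not tested. Abcc8, the sulphonylurea receptor of pancreatic beta cells, was at 4.06 to 4.13 log2 with Vehicle and 4.14 to 4.28 on the treated arrays, apart from each other but below the array medians (difference 0.10, adjusted p = 0.415).

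The export pumps of the subfamily differed little. Abcc3, a basolateral pump for conjugated bile acids, lay at 7.91 to 8.06 log2 with Vehicle and 8.12 to 8.31 with Ihh (difference for Ihh 0.19 ± 0.08, adjusted p = 0.523). Abcc4, which exports cyclic nucleotides and prostaglandins, differed by -0.16 for both ligands, and Abcc5, an exporter of cyclic nucleotides with 10 probe sets, by 0.01, with -0.10 to 0.13 over those probe sets. Abcc10 differed by 0.08. Abcc2, the conjugate pump of bile canaliculi, Abcc6, known from soft tissue calcification, and Abcc12 lay between 3.52 and 4.85 log2 on all arrays, below the array medians, and differed by -0.08 to 0.07.

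**Figure D3:**
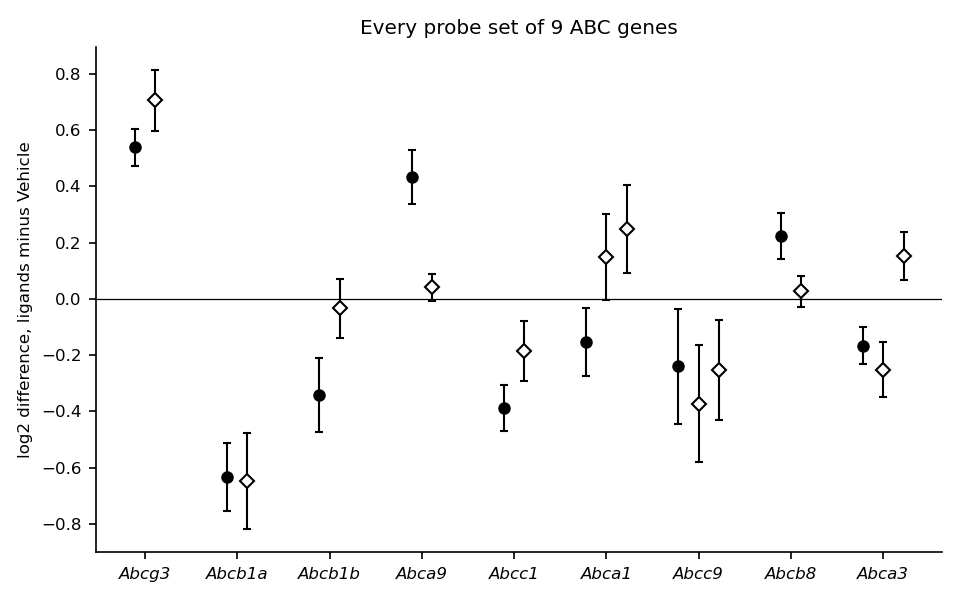
Difference between both ligands and Vehicle on the log2 scale (vertical axis) for every probe set of 9 ABC genes, with SE from limma; filled circles are the probe sets used for the gene and open diamonds the others, in order of level. The probe sets of Abcg3 and of Abcb1a lie together, at 0.54 and 0.71 and at -0.63 and -0.65, while those of Abca9, Abca1 and Abca3 spread apart. Those of Abcb1b (-0.34 and -0.03), Abcb8 (0.22 and 0.03) and Abcc1 (-0.39 and -0.19) are also apart.

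In the organelle and ribosome subfamilies, no gene passed the threshold in any comparison. Abcd3, which takes fatty acids into peroxisomes, lay at 9.77 to 9.99 log2 on all arrays and differed by -0.02 for both ligands, with an interval of -0.15 to 0.11. Abcd4, which releases cobalamin from lysosomes, differed by -0.10 ± 0.05 (adjusted p = 0.445), and Abcd2, a peroxisomal transporter below the array medians, by 0.01. Abce1, which splits ribosomes after termination, varied least between replicates, with an SD within groups of 0.04 log2. It lay at 10.41 on each Vehicle array, 10.24, 10.36 and 10.29 with Shh, and 10.44, 10.50 and 10.47 with Ihh. The Shh arrays lay below and the Ihh arrays above all Vehicle arrays, and the difference for both ligands together was -0.02. Abcf1, Abcf2 and Abcf3, which act in translation, differed by -0.01, -0.01 and -0.07, and the sign of Abcf1 turned with the normalization, to 0.03 after another quantile normalization. Probe sets of 1 gene did not always share a sign: of 26 ABC genes with several, all were on the same side of 0 in 15 for both ligands, over 92 probe sets in all.

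Each ligand was also set against Vehicle separately, with the same 3 Vehicle arrays. Shh called 2 of 45, Abcg3 upward and Abcb1a downward, where 1.73% of all genes were called (0.489% upward and 1.24% downward). Ihh called 2 of 45, Abcg3 and Abca9 upward, where 0.649% were called (0.192% upward and 0.456% downward). At an unadjusted p under 0.05 there were 7 members for each ligand, against 18.8% of all genes for Shh and 9.19% for Ihh. The arrays of Shh and Vehicle did not overlap for 10 members (20.9% of all genes), 5 higher and 5 lower with Shh (9.56% and 11.4%). Those of Ihh and Vehicle did not overlap for 9 (13.8%), 5 higher and 4 lower with Ihh (5.67% and 8.15%). The median difference of the members was 0.00 log2 for Shh and -0.02 for Ihh, against 0.01 and -0.01 over all genes.

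Shh and Ihh were then compared with each other. Limma called 0 of 45 members, with 5 at an unadjusted p under 0.05, where 0.0110% of all genes were called and 13.1% had such a p. The arrays of the ligands did not overlap for 8 members (17.3% of all genes), 4 higher and 4 lower with Shh (9.37% and 7.93%). Abca9 was lower with Shh by 0.41 log2 with a 95% interval of 0.17 to 0.66 (adjusted p = 0.29), and Abcb1a was lower with Shh by 0.36 with an interval of 0.05 to 0.68 (adjusted p = 0.341). Abce1, Abcc6 and Abcg8 differed by -0.17, 0.21 and 0.20 for Shh minus Ihh (adjusted p = 0.308, 0.371 and 0.319). For Abcg3 the difference was 0.08, and its interval of -0.09 to 0.25 bounds how far the ligands could differ. A call with 1 ligand and not the other is therefore not a difference between the ligands for Abca9 or Abcb1a at this threshold.

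**Figure D4:**
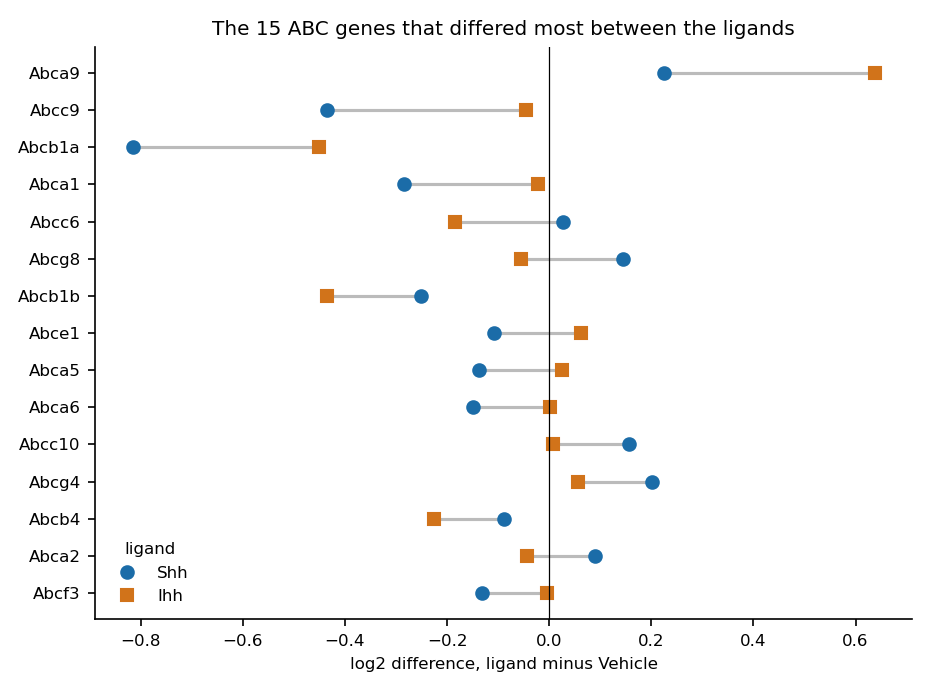
Differences of Shh (circles) and Ihh (squares) from the shared Vehicle arrays on the log2 scale (horizontal axis) for the 15 ABC genes chosen for the largest gap between the ligands, with a grey line for that gap. Abca9 has the longest line, from 0.23 with Shh to 0.64 with Ihh, followed by Abcc9 and Abcb1a.

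Genes that work with the transporters were given as 6 lists chosen by function, with 103 of 117 listed genes measured. For both ligands together 1 rose and 2 fell (0.434% and 1.07% of all genes), and the median difference was -0.03 log2, against 0.00 over all genes. Of 17 sterol efflux genes 0 rose and 1 fell. It was Ch25h, which adds a hydroxyl group to cholesterol, at 6.96 to 7.19 log2 with Vehicle and 6.46 to 6.70 on the treated arrays (-0.48 ± 0.06, adjusted p = 0.00355). Of 18 xenobiotic and glutathione genes 0 rose and 1 fell, Gsr, which regenerates the reduced glutathione that Abcc1 substrates are joined to, at 9.28 to 9.47 log2 with Vehicle and 8.91 to 9.16 on the treated arrays (-0.38 ± 0.07, adjusted p = 0.0259). Of 18 iron-sulphur and haem genes 1 rose and 0 fell, Hscb, a co-chaperone of cluster assembly (0.28 ± 0.06, adjusted p = 0.0498). Ch25h stayed past the threshold in all 18 alternative settings, Gsr lost its call without Vehicle 1, Vehicle 2, Shh 2, Shh 3 or Ihh 2, and Hscb when any 1 array was left out, after another quantile normalization, with arrays centred, with every probe set tested singly and without less specific probe sets. Limma called 0 of 18 peroxisome genes (unadjusted p under 0.05: 2 higher, 0 lower), with Acox3, a peroxisomal acyl-CoA oxidase, at 0.25 (adjusted p = 0.172). In the list for ribosome rescue it called 0 of 16 (1 higher and 2 lower unadjusted), with Asns, asparagine synthetase, at 0.26 (adjusted p = 0.222).

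The peptide loading genes of MHC class I include Tap1 and Tap2, ABC proteins whose symbols fall outside the family rule. Limma called 0 of these 16 (unadjusted p under 0.05: 0 higher, 6 lower, where 13.7% of all genes had such a p in either direction). The median difference was -0.21 log2, against 0.00 over all genes. Tap1 lay at 6.93, 6.84 and 6.09 log2 on the Vehicle arrays and 5.92 to 6.09 on the treated arrays (-0.63 ± 0.16, adjusted p = 0.0861). Vehicle 3 stood apart from the other 2 Vehicle arrays and lay at the level of the treated ones. Over the whole list the mean was 9.37, 9.40 and 8.92 log2 on the Vehicle arrays and 8.86 to 9.03 on the treated ones. Without Vehicle 3, limma called 10 of the 103 companion genes of all lists, each downward. Tap1 was among them, and so were Ch25h and Gsr of other lists. Over all genes 416 of 18193 were called without that array, 349 of them downward, against 274 with all arrays. Tap2 differed by -0.24 (adjusted p = 0.402). Cftr, the chloride channel of the family, lay at 3.34 to 3.94 log2 on all arrays.

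**Figure D5:**
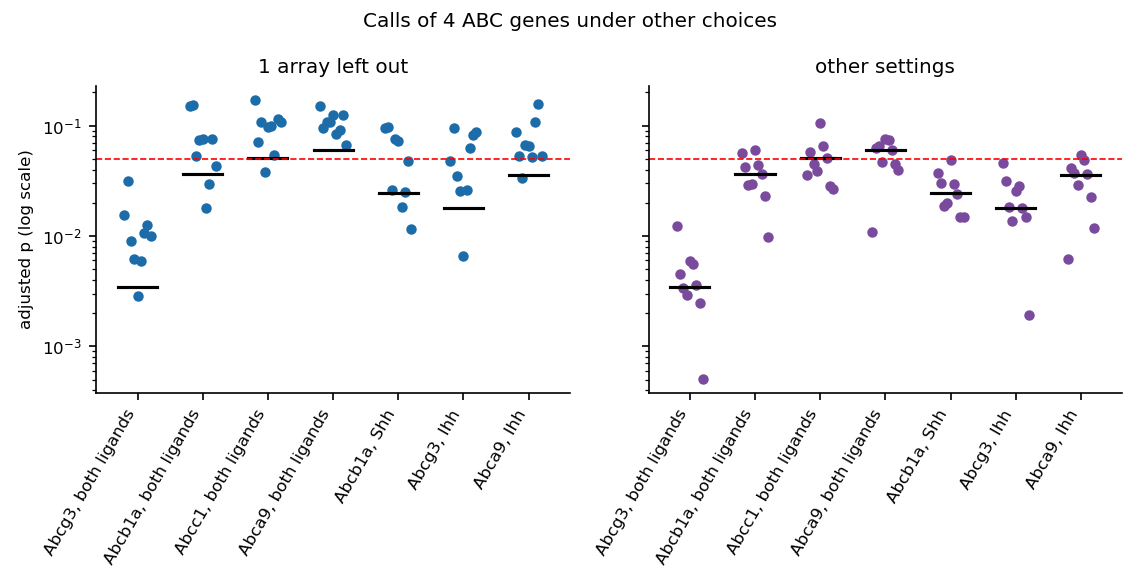
Adjusted p from limma (vertical axis, log scale) of 4 ABC genes in 7 pairs of gene and comparison, with 1 array left out (left panel) and under the other 9 settings (right panel); black bars give the value with all arrays and the dashed line the threshold of 0.05. All points of Abcg3 for both ligands lie below the line, while the points of each of the other 6 pairs drawn lie on either side of it; Abcg3 for Shh is not drawn.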

How the data were processed

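The data were 9 Affymetrix arrays of biotin-labelled cRNA from 6 ug of total RNA, 3 per group. The deposited values are log2 expression for each of 45101 probe sets. The submitters' processing notes name RMA, which corrects background, normalizes between arrays and summarizes probes, and GCOS, without version. RMA makes arrays alike in distribution, which hides any common shift. No batch is given, and array number, not depth, limits the precision.

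In the platform annotation 34945 probe sets had 1 symbol, 932 several and 9160 none, beside 64 controls. Entrez identifiers were checked against RefSeq of GRCm38.p6 (34741 matched, 0 symbols changed). Each of 18193 genes was taken from its probe set with the highest mean. With limma 3.58.1 in R 4.3.3 (lmFit, eBayes) a mean per group was fitted over the 9 arrays, two-sided, with Benjamini-Hochberg adjustment over all genes per comparison and a threshold of 0.05. The steps were tested on simulated data.

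Members, lists and tests were chosen with earlier results of these data known. Named genes were members past the threshold in any comparison or with an unadjusted p under 0.05 for both ligands, the largest difference per subfamily and a fixed set. Other members and markers are given by range or value. Promoter windows are RefSeq's. Alternatives were another normalization, centring, probe-set choice, filter, variance model, array weights, the replicate block and 1 array left out. Arrays of the same number correlated over 0.1 in every pair of Vehicle and Ihh but not in every pair with Shh, and no source says what the number marks.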

Additional observations from a re-analysis of the deposited data

Results flagged for a closer look

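The differences from Vehicle ran in opposite directions with the ligands on every array for 2 of the 45 genes (4.44%, against 3.09% of all genes). Abca2 had all Shh arrays above and all Ihh arrays below the Vehicle mean, with a difference of Shh minus Ihh of 0.13 log2 (limma adjusted p = 0.401) and levels of 5.54 to 5.79 log2, below the array medians. Abce1 had all Shh arrays below and all Ihh arrays above that mean, with a difference of Shh minus Ihh of -0.17 log2 (adjusted p = 0.308). Neither passed the threshold between the ligands.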

How the results depend on the processing

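The 4 counts of ABC genes, the companion and all-gene counts and the named differences were recomputed in 18 alternative settings. For both ligands 2 of 45 ABC genes were called. After leaving out genes in the dimmest 40% the count was 4 of 28, with 337 of 10916 over all genes. With a trended and robust variance it was 4 of 45 (351 of 18193), and with array weights 4 of 45 (1126 of 18193). Abca9 and Abcc1 were added in these settings. With the mean over probe sets the count was 1 of 45 (298 of 18193). With arrays centred on their medians it was 3 of 45 (325 of 18193), Abcc1 being added. With every probe set tested singly it was 3 of 92 (334 of 34945), all of Abcb1a and Abcg3. It was 1 to 2 with 1 array left out, and without Shh 1 the 2 were Abcc1 and Abcg3. For Shh the 2 became 1 to 2 with 1 array left out. For Ihh the 2 became 0 to 2 with 1 array left out and 1 with the mean of probe sets. Between the ligands the count was 0 in all settings. Companion genes called numbered 3, 1 to 10 with 1 array left out and 11 with array weights. Of all genes, 274 were called for both ligands, 99 to 416 with 1 array left out and 1126 with array weights. For Shh these were 314, 80 to 675 and 1017, for Ihh 118, 53 to 229 and 498, and between the ligands 2, with 1 to 2.

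Same-numbered arrays correlated in their deviations from the group means at 0.23 to 0.54 between Vehicle and Ihh, at -0.16 to 0.14 between Vehicle and Shh and at -0.30 to -0.08 between Shh and Ihh, so the numbers did not pair all 3 groups, and not every array correlated best with its own number. With the replicate block 3 ABC genes were called for both ligands, with Abca9 (adjusted p = 0.0109) and Abcc1 (0.0358) gained and Abcb1a at 0.057, 2 for Shh and 2 for Ihh, the latter Abca9 (0.00624) and Abcg3 (0.0454) as without it. Over all 18193 genes the block gave 379 calls for both ligands, 522 for Shh and 122 for Ihh.

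The differences that changed sign were not called: Abca1, at -0.15, turned to 0.0806 with the mean of probe sets, Abcf1, at -0.01, to 0.0257 after quantile normalization, 0.0283 with the mean of probe sets, 0.0074 without less specific probe sets and 0.0512 with array weights, and Abcg1, at 0.01, to -0.0108 with arrays centred and -0.0053 with array weights. With 1 array left out Abcf1 ran from -0.0512 to 0.0436 and Abcg1 from -0.0526 to 0.0653. Causes were not tested. Low signal limits the 14 genes below the array medians.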

Other observations

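Epithelium markers differed between arrays of the same group, with list means of 8.27, 7.14 and 6.07 log2 on the Vehicle arrays, 7.30, 6.05 and 8.42 with Shh, and 7.77, 7.97 and 6.89 with Ihh. On the same arrays Abcc2 lay at 3.52 to 3.77 log2, Abcg5 at 3.61 to 4.11 and Cftr at 3.34 to 3.94, all below the array medians, and Abcg8, the partner of Abcg5, at 5.77 to 6.10. In the same order of arrays, Cftr was at 3.94, 3.56 and 3.34 log2 with Vehicle, 3.37, 3.36 and 3.55 with Shh, and 3.77, 3.61 and 3.59 with Ihh.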
